A study of Mus musculus with 3 samples.

Results

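Numbered zinc finger protein genes are the mouse genes whose symbol is Zfp followed only by digits. The feature lists of the 3 libraries held 365 such symbols. Zfp36, Zfp42, Zfp296 and Zfp473 were set aside by the rule that defines the group, and a floor of 10 CPM in the control library, where CPM are UMI counts scaled to a common library total, left 115 members of the remaining 361. In all, 7213 genes reached that floor. The group was chosen by its log2 ratios at both times of treatment together with the control level. The libraries came from E14, an established line of mouse embryonic stem cells (129/Ola background) kept in serum with leukemia inhibitory factor. One library was made from cells exposed to cycloheximide at 250 µg/mL in 0.007% ethanol for 3 h, another from cells exposed for 6 h, and the control from cells that received ethanol alone for 6 h. Cells were detached with trypsin, frozen and profiled by droplet single-cell sequencing of transcript 3′ ends, in which each molecule carries a unique molecular identifier (UMI). Each group was 1 library, so no difference between groups has a replicate check or a test, and 95% intervals cover counting error only.

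A C2H2 zinc finger is a small protein fold held by a zinc ion that reads a few bases of DNA, and proteins with long arrays of fingers can recognise long sites. Many carry a KRAB box, a domain that recruits the corepressor Trim28 and, through it, the histone methyltransferase Setdb1, and in embryonic stem cells such proteins silence retroelements and protect imprints. Other proteins named Zfp have few fingers and act on RNA, ribosomes or ubiquitin. Cycloheximide blocks translation elongation, so that proteins are no longer replaced while RNA synthesis and decay go on.

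The members' own annotation shows this mixture. A pattern for the KRAB box was found in the translated coding sequence of 45 members and not in the other 70, although a divergent box can escape the pattern. The number of C2H2 fingers had a median of 9 and reached 34 in Zfp462 and in Zfp142. Members lay on 19 chromosomes. The largest group of neighbours, with gaps under 1 Mb, held 11 members on chromosome 4 between positions 145510759 and 147809788 of GRCm38, and all 11 had a KRAB box. They were Zfp990, Zfp980, Zfp987, Zfp992, Zfp981, Zfp988, Zfp982, Zfp985, Zfp979, Zfp534 and Zfp984. KRAB zinc finger genes of this region are known for the silencing of endogenous retroviruses.

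The promoters of that cluster are printed because its members include the highest ratios of the whole group. RefSeq promoters, which run from 250 bases before a start to 50 after it, were listed for 92 of the 115 members and for 9 of the 11 in the cluster. Of the 9, 8 were related, with pairwise identities of 58.2% to 89.8% (median 74.5% over 28 pairs). The first promoter listed for Zfp982 reached no more than 49.1% identity with any of them. The stretch of up to 120 bases that begins at the longest sequence shared by all 8 is given 5′ to 3′ on the strand of the gene, from RefSeq on GRCm38.p6. Capitals mark bases within any 6-base word that occurs somewhere in the 250 bases before the start in all 8 promoters. Overlapping words are joined, so a longer capital run need not occur in all 8. A word cut by the end of a line shows fewer capitals. The reference genome is of another mouse strain than these cells.
Zfp980 chr4:145670556-145670675 plus strand: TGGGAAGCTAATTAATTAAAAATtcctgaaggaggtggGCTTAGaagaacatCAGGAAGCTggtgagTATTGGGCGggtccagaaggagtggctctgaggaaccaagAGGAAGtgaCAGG
Zfp987 chr4:146097161-146097280 plus strand: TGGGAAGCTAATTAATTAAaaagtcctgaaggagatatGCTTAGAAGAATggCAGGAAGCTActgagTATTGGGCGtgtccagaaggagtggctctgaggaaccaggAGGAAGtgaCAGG
Zfp981 chr4:146514756-146514875 plus strand: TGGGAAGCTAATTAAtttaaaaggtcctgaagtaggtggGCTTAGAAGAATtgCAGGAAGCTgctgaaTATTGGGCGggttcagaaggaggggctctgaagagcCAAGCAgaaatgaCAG
Zfp988 chr4:147305490-147305603 plus strand: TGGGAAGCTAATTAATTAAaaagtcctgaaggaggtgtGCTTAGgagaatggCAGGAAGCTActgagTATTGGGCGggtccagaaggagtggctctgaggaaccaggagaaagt
Zfp985 chr4:147553141-147553260 plus strand: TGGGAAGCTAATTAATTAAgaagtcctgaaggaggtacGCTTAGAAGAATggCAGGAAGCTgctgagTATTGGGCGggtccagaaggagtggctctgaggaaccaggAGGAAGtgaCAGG
Zfp979 chr4:147642530-147642649 minus strand: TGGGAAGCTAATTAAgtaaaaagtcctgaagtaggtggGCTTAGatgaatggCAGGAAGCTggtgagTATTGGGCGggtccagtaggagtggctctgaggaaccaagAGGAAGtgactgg
Zfp534 chr4:147702632-147702737 minus strand: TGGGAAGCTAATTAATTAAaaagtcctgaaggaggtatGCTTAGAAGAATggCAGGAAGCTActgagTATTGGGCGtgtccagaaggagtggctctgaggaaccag
Zfp984 chr4:147809823-147809942 minus strand: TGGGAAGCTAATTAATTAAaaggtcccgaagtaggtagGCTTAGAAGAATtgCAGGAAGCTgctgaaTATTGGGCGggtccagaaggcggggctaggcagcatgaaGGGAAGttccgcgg

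The longest shared run was 15 bases, the first 15 of each line, and it ends in an AT-rich stretch. Among 27025 genes with a listed promoter, 12 held this run on either strand, which is 0.0444%, and all 12 lay in the same interval of chromosome 4. Besides the 8 members printed and another listed start of Zfp982, they were Gm13212, Rex2 and Zfp600. Those 3 were below the floor, and their log2 ratios at 6 h were 1.52, 1.15 and 0.51. A run shared by neighbouring copies of a gene is a description of their sequence and not a binding site.

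Before the results, the libraries are described as a whole. Barcodes with at least 15000 UMIs and 1 to 20% mitochondrial UMIs numbered 2187 (control), 1739 (3 h) and 2554 (6 h), with 106842407 to 140321458 UMIs summed over them and medians of 43160 to 51726 UMIs per cell. The lower mitochondrial limit left out 62, 1 and 8 barcodes. The mitochondrial share of UMIs was 4.57%, 3.51% and 2.94%, a shift that runs in the order of exposure, and its part in the results was not tested. Pairs of libraries shared 1 to 3 cell barcodes. All 10 embryonic stem cell markers examined had at least 10 CPM in each library, summing to 7260, 8205 and 7318 CPM. Among markers of other cells, 7 fibroblast genes summed to 1.29 to 2.48 CPM with Col3a1, Postn and Lum at 0 throughout, and 6 markers of two-cell-like cells summed to 0.583 CPM or less. Primitive endoderm markers (6 genes) summed to 8.41 to 11.3 CPM, while between the control and 6 h Sox7 went from 5.55 to 0.30 CPM and Gata4 from 1.88 to 3.35. Trophoblast markers (6 genes, Elf5 at 0) summed to 39.0 to 41.8 CPM, with Krt8 going from 24.2 to 14.01 and Tfap2c from 7.74 to 18.3. The 4 neural markers summed to 81.8, 58.7 and 39.4 CPM: Tubb3 went from 65.3 to 18.6 CPM between the control and 6 h, while Nes went from 7.15 to 11.03 and Pax6 from 2.55 to 3.10. The part of these markers in the results was not tested.

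Numbered Zfp transcripts took a larger share of the RNA in both treated libraries. Their UMIs made up 0.420% of the control library, 0.546% of the 3 h library and 0.541% of the 6 h library. Per cell this was 214, 335 and 297 UMIs, from cells whose total UMIs also differed between libraries. Against the control, members had a median log2 ratio of 0.43 after 3 h and of 0.33 after 6 h, where all 7213 genes at the floor had medians of 0.08 and 0.12. The members' median thus exceeded that of all genes by 0.36 at 3 h and by 0.21 at 6 h. In a sum over cells, more cells with a transcript and more transcript per cell cannot be told apart.

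At 3 h, 41 of the 115 members (35.7%) were at least 1.5-fold higher than in the control, and 1 was at least 1.5-fold lower. Of all genes at the floor, 10.1% were that much higher and 2.91% that much lower. At 6 h, 44 members (38.3%) were at least 1.5-fold higher and 11 (9.57%) at least 1.5-fold lower, beside 17.6% and 9.43% of all genes. The group was proposed from these same ratios, so the excess over all genes is a description of how it was chosen. Passing the fold at both times in the upward direction were 37 members, with 4 at 3 h only and 7 at 6 h only. Zfp365 was lower at both times, and 10 others were lower at 6 h only. The remaining 56 members stayed within 1.5-fold at both times. Shares of all genes for these patterns over both times are not given here, so the patterns describe the members only.

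**Figure D1:**
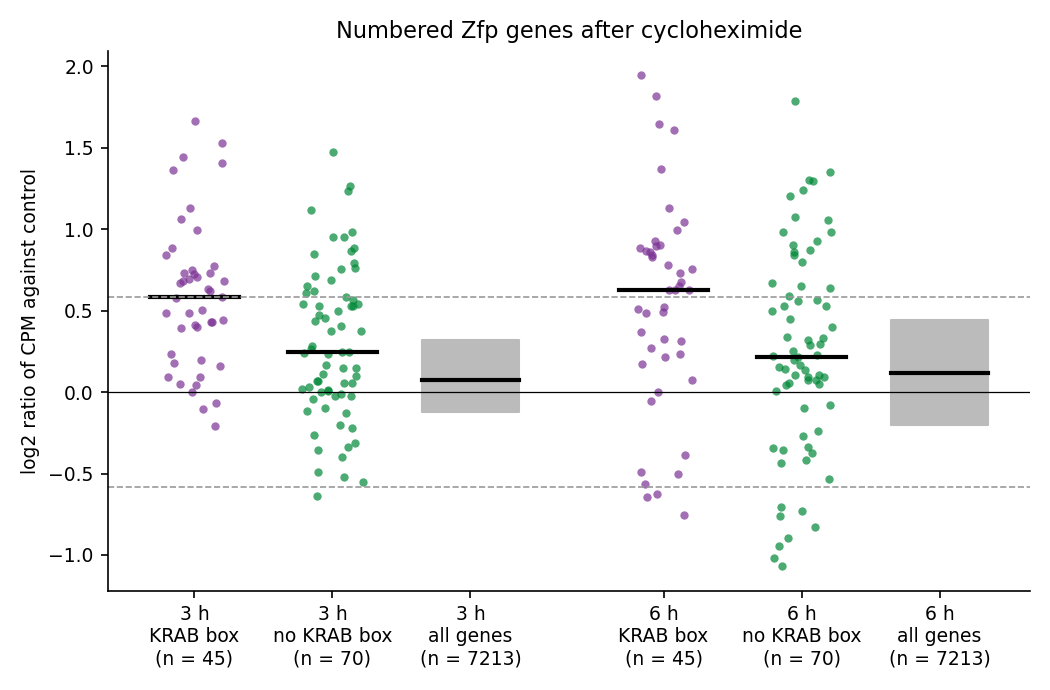
Log2 ratio of CPM against the control (vertical axis) for members with a KRAB box (purple points) and without one (green points) at 3 h and 6 h; thick bars are medians, grey boxes give the quartiles of all 7213 genes at the floor, and dashed lines mark 1.5-fold. KRAB members have medians of 0.58 and 0.63, and members without the box 0.25 and 0.22.

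The scaling sets these counts and leaves the distance from the other genes as it is. With trimmed-mean (TMM) factors in place of library totals, all log2 ratios were lower by 0.17 at 3 h and by 0.28 at 6 h. The counts at 6 h then were 25 members higher (21.7%) and 22 lower (19.1%), against 44 and 11, beside 8.17% and 19.2% of all genes under TMM, so that the share lower was that of all genes. At 3 h 23 were higher and 4 lower, beside 5.74% and 6.54% of all genes. With UMIs per cell, all ratios were higher by 0.27 and 0.11, and 65 members (56.5%) were past the fold upward at 3 h, beside 25.4% of all genes. The excess of the members' median over that of all genes, 0.36 and 0.21, was the same under the 3 scalings, since each adds a constant.

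The 10 members with the highest ratios at 6 h were each at least 2.36-fold above the control. Zfp534 (chr4:147673502-147702553, minus strand; 15 fingers and a KRAB box) had 30.4 CPM without cycloheximide, 96.1 after 3 h and 117 after 6 h, log2 ratios of 1.66 and 1.95 with intervals of 1.61 to 1.72 and 1.89 to 2.00. Its neighbour Zfp988 (chr4:147305674-147333734, plus strand) had 31.4, 90.8 and 111 CPM, ratios of 1.53 and 1.82. For both genes each treated library was far above the control, by 2.89-fold to 3.85-fold. Zfp987, also of the cluster, had 15.2, 40.4 and 46.5 CPM, with ratios of 1.41 and 1.61.

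Genes outside the cluster reached similar ratios. Zfp105 (chr9:122923072-122931028, plus strand), with 11 fingers and no KRAB box found, had 13.0 CPM without cycloheximide, 36.0 after 3 h and 44.8 after 6 h, log2 ratios of 1.47 and 1.79. Zfp688 (chr7:127418967-127422068, minus strand), a short KRAB protein with 2 fingers, had 12.8, 33.1 and 40.2 CPM, ratios of 1.36 and 1.65. Zfp157 had 12.4, 33.8 and 32.1 CPM and so was no higher at 6 h than at 3 h. Zfp654, Zfp212, Zfp35 and Zfp655 completed the 10, with ratios at 6 h of 1.35, 1.30, 1.30 and 1.24 and at 3 h of 0.95, 1.24, 1.12 and 0.98. All 10 were above the control in both treated libraries, and Zfp157 alone had a lower CPM at 6 h than at 3 h.

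At the other end, the control was the highest library for 9 of the 10 members with the lowest ratios at 6 h, or for 6 of the 10 when UMIs per cell are compared. Zfp516, a transcriptional regulator known from brown fat, had 17.9 CPM without cycloheximide, 12.5 after 3 h and 8.55 after 6 h, log2 ratios of -0.52 and -1.07. Zfp423 (chr8:87661810-87959595, minus strand), a partner of EBF factors with 27 fingers, had 26.2, 20.8 and 12.9 CPM, ratios of -0.34 and -1.02. These were the 2 members at least 2-fold lower at 6 h. Zfp580 had 13.8, 9.83 and 7.19 CPM, and Zfp710 had 35.9, 33.1 and 19.3 CPM. The level of Zfp710 at 3 h was close to the control and most of its difference lay between 3 h and 6 h.

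Zfp143, a promoter-binding factor that takes part in chromatin loops, had 15.7, 12.2 and 8.82 CPM, log2 ratios of -0.36 and -0.83. Zfp365, for which the pattern found 0 fingers, had 12.9, 8.29 and 7.62 CPM and was the member lower at both times, with ratios of -0.64 and -0.76. Zfp7, Zfp106, Zfp740 and Zfp317 followed with ratios at 6 h of -0.76, -0.73, -0.71 and -0.64. Zfp317 was the exception among the 10 in CPM, with 14.1 at 3 h and 13.6 in the control. Of these 10 members, Zfp7 and Zfp317 had a KRAB box.

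**Figure D2:**
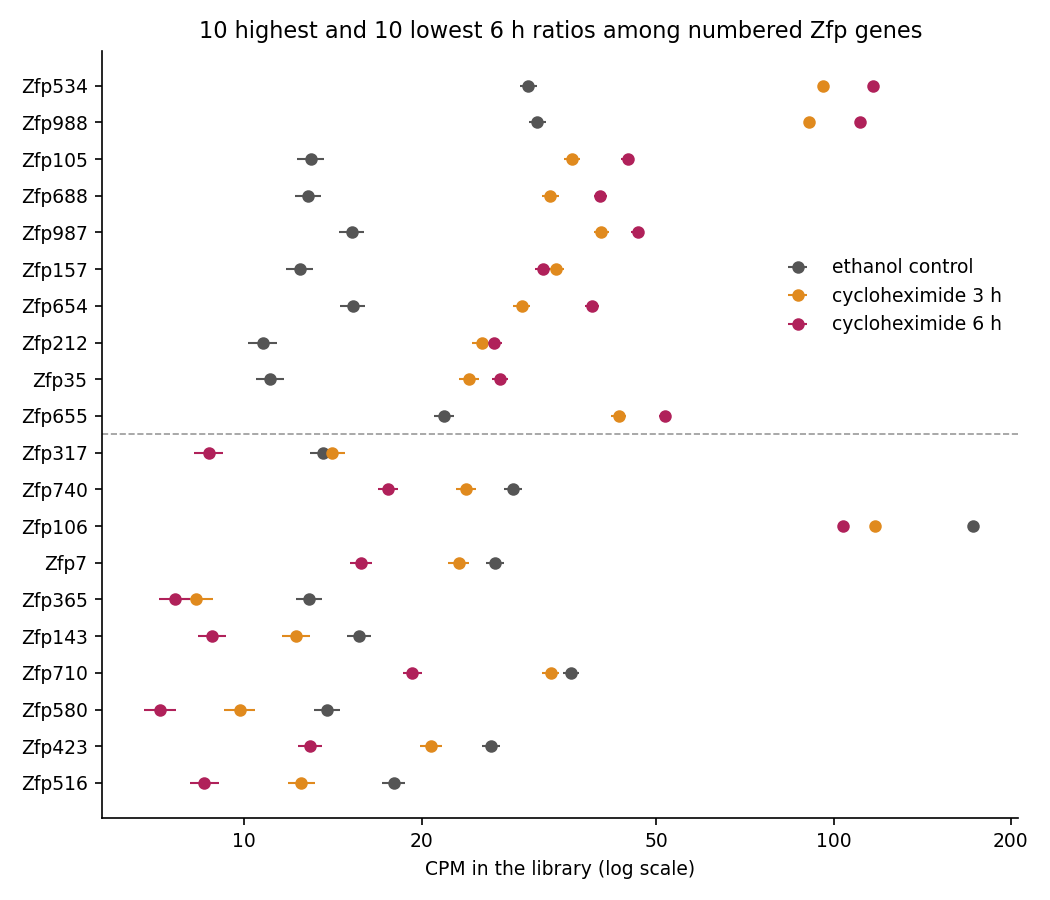
CPM in each library (horizontal log axis) with exact Poisson 95% intervals for the 10 members with the highest (above the dashed line) and the 10 with the lowest (below it) log2 ratio at 6 h. In the upper part the grey control points lie left of both treated points, and in the lower part the 6 h points lie left of the control, from 8.55 against 17.9 CPM for Zfp516 to 8.70 against 13.6 CPM for Zfp317.

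Between 3 h and 6 h the members hardly shifted as a group when scaled by library totals. TMM factors and UMIs per cell each lower every ratio at 6 h against 3 h by a constant, with the medians given in the closing section. The values that follow are those of library totals. The median log2 ratio at 6 h against 3 h was 0.002, with 0.03 for all genes. No member (0 of 115) was at least 1.5-fold higher at 6 h than at 3 h, and 4 were at least 1.5-fold lower, beside 0.929% and 2.93% of all genes. Those 4 were Zfp710 (-0.78), Zfp57 (-0.72), Zfp317 (-0.70) and Zfp423 (-0.68), with Zfp1 next at -0.58. The highest ratios at 6 h against 3 h were those of Zfp326 (0.44), Zfp950 (0.43), Zfp654 (0.40), Zfp414 (0.33) and Zfp105 (0.31).

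KRAB members had higher ratios in the median than the rest. Their median log2 ratios were 0.58 (3 h) and 0.63 (6 h), and that of members without the box 0.25 and 0.22. At 6 h, 24 of 45 KRAB members (53.3%) were at least 1.5-fold higher and 3 (6.67%) lower. Of the 70 others, 20 (28.6%) were higher and 8 (11.4%) lower. Of all genes at the floor, 17.6% were higher and 9.43% lower, so both shares lower were near that of all genes. The chromosome 4 cluster holds 11 of the KRAB members. Without it, the other 34 had medians of 0.49 and 0.49, and the difference in medians at 6 h between KRAB and other members fell from 0.41 to 0.27. The 7 other genes at the floor with a KRAB box and at least 3 fingers, which carry other names, had medians of 0.47 and 0.45. The difference between KRAB and other members ran the other way among the 48 members with 40 to 60% G or C at the third codon position, as described with the codon composition.

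Within the chromosome 4 cluster all 11 members were above the control at both times, except that TMM factors put Zfp984 at -0.01 at 6 h. The medians were 0.73 and, at the later time, 0.90, and 9 and then 10 of the 11 passed 1.5-fold upward. Of all genes at the floor, 10.1% and 17.6% did so. These counts depend on the scaling. With TMM factors Zfp982, Zfp981, Zfp980 and Zfp985 were below 1.5-fold at 3 h (0.56, 0.56, 0.51 and 0.50). At 6 h Zfp981, Zfp985, Zfp992 and Zfp980 were below it as well (0.58, 0.39, 0.35 and 0.34). Ratios at 6 h spanned 0.27 in Zfp984, which had 27.7 CPM without cycloheximide, 32.5 after 3 h and 33.4 after 6 h, to 1.95 in Zfp534. Zfp990 had 162, 355 and 355 CPM, log2 ratios of 1.13 at both times. Zfp979 had 107, 182 and 219.7 CPM, ratios of 0.77 and 1.04. So Zfp990 had reached its level by 3 h, whereas Zfp979 was higher again at 6 h.

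The other members of the cluster were intermediate. Zfp982, Zfp981, Zfp985, Zfp992 and Zfp980 had ratios at 6 h of 0.90, 0.87, 0.67, 0.63 and 0.63. Zfp992, at 0.40, was below 1.5-fold at 3 h. The interval held 17 numbered Zfp symbols, and the 6 below the floor include Zfp978, which had 7.27, 16.1 and 18.5 CPM, and Zfp989, which had 2.62, 5.46 and 5.06 CPM. Gm21411, a gene at the floor in the interval with a KRAB box and 0 fingers, had ratios of 0.68 and 0.63.

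**Figure D3:**
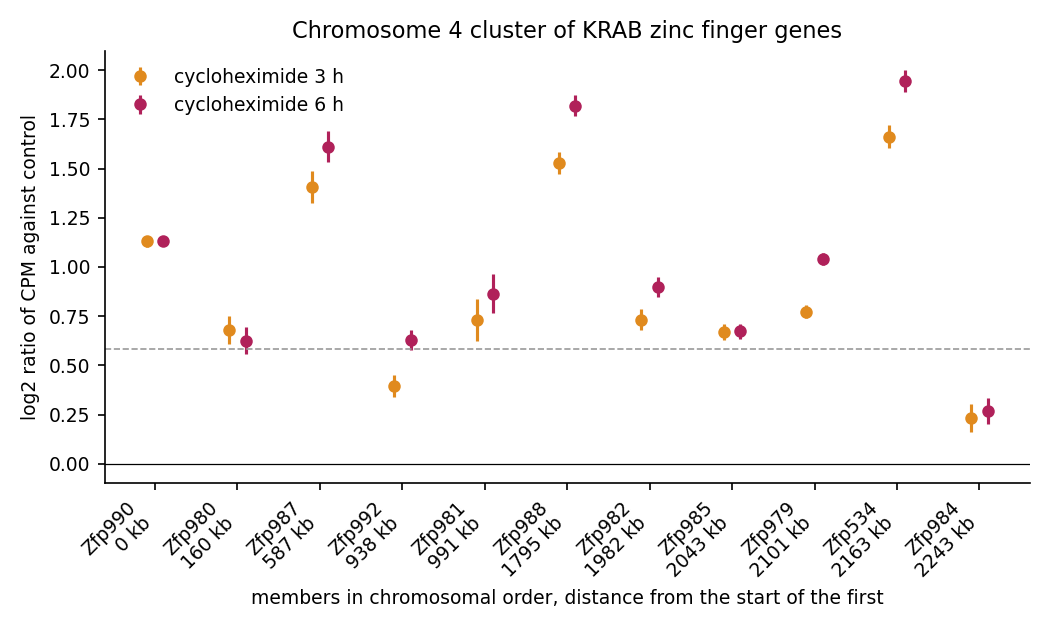
Log2 ratio of CPM against the control at 3 h (orange) and 6 h (crimson) for the 11 members of the chromosome 4 cluster in chromosomal order, spaced evenly, with their distance in kb from the start of Zfp990; bars are exact 95% intervals of the count ratio and the dashed line marks 1.5-fold. All points lie above 0, from 0.23 at 3 h for Zfp984, which TMM factors put at -0.01 at 6 h, to 1.95 at 6 h for Zfp534.

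The counts of these near-identical genes are uncertain one by one. Cluster members share 3′ ends with other genes, and how reads that match several genes were counted is not given in the sources used here. Of the 50-base words in the last 500 bases, another gene also held 85.6% in Zfp987, 73.2% in Zfp534, 63.6% in Zfp980 and 52.5% in Zfp981. Zfp988 shared 44.1% with Zfp987 or others, and Zfp979 shared 0%. Outside the cluster Zfp932 shared 60.3%, and 96 of the 115 members shared 0%. Without the 5 members above 50%, the medians were 0.42 and 0.32, and 37 and 40 members were at least 1.5-fold higher.

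Other neighbourhoods were smaller and mixed. Zfp397, Zfp35 and Zfp24 on chromosome 18, none with a KRAB box found, had ratios at 6 h of 0.50, 1.30 and 0.84. On chromosome 17, Zfp871 and Zfp101 had 0.63 and 0.65 and Zfp414 0.10. Zfp180, Zfp428 and Zfp574 on chromosome 7 had -0.34, 0.34 and -0.42. A second group on that chromosome joined Zfp688 at 1.65 with Zfp771 at -0.35, less than 1 Mb apart. On chromosome 9, Zfp317 at -0.64 lay near Zfp560 at 0.93.

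The promoters of members had fewer CpG pairs than those of other genes. The median number in the 300-base window was 15.5 over 92 members, 22 over 5791 genes at the floor and 4 over the 9 listed in the chromosome 4 cluster. Motifs were searched on both strands by their letters alone. GGGCGG, the GC box, was in 55.4% of member promoters and in 68.8% of those of genes at the floor. CCATNTT, the core of YY1 sites, was in 31.5% and 17.9%. The ETS core CCGGAAG was in 20.7% and 23.3%, the cyclic AMP response element core TGACGTC in 4.35% and 6.98% and the E-box CACGTG in 7.61% and 11.3%. Over all 27025 listed genes the shares were 35.9% for GGGCGG and 16.3% for CCATNTT. The median ratio at 6 h of members with and without a motif was 0.51 and 0.34 for CCATNTT and 0.49 and 0.33 for CCGGAAG. Members with the motif were the lower ones for GGGCGG, at 0.32 and 0.49. That order also held for CACGTG (0.22 in 7 members with it, 0.40 without) and TGACGTC (-0.07 in 4 members with it, 0.38 without).

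Codon composition varied with the ratios among members. The share of G or C at the third codon position ranged widely, with a median of 48.7% in members and 58.8% in 7106 genes at the floor with a coding sequence. Across the 115 members it had a Spearman correlation of -0.40 with the ratio at 6 h (Pearson -0.40), and across those 7106 genes one of -0.07. Across the 86 other genes with at least 3 C2H2 fingers it was -0.33. Genes of a sample are not independent replicates, and members of a cluster share ancestry. Of the 32 members below 40%, 19 were at least 1.5-fold higher at 6 h and 0 lower, and 26 of the 32 had a KRAB box. Of the 48 at 40 to 60%, 18 were higher and 6 lower, and of the 35 at 60% or more, 7 were higher and 5 lower. Among all genes at the floor the share higher varied less over the same ranges. In that order, 103 of 516 genes (19.96%), 559 of 3264 (17.1%) and 567 of 3326 (17.05%) were higher, and 36, 236 and 386 lower. The KRAB difference was not the same in each range. Below 40%, the 26 KRAB members had medians of 0.68 and 0.76, and the 6 others 0.40 and 0.23. At 40 to 60% the order was the opposite, with 0.18 and 0.04 for 14 KRAB members and 0.53 and 0.39 for 34 others. At 60% or more, 5 KRAB members had 0.43 and 0.31 and 30 others 0.10 and 0.10. Among the 70 members without a KRAB box the correlation was -0.35, and outside the chromosome 4 cluster it was -0.32.

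**Figure D4:**
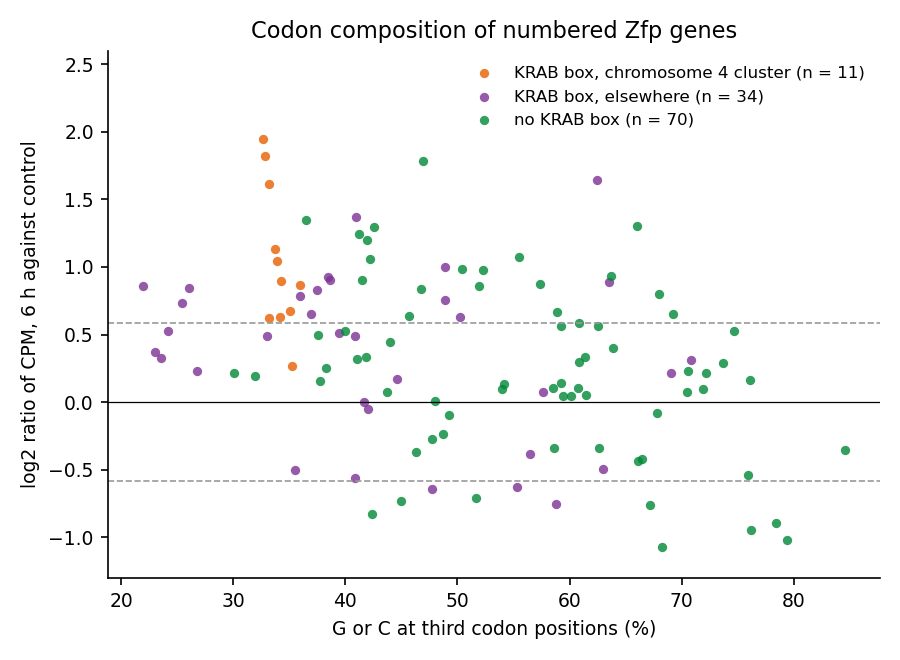
Share of G or C at the third codon position (horizontal axis, percent) against the log2 ratio of CPM at 6 h (vertical axis) for the 115 members; orange points are the chromosome 4 cluster, purple points other KRAB members and green points members without a KRAB box, and dashed lines mark 1.5-fold. Below 40% no point lies under the lower dashed line, and Zfp423 and Zfp710 are among the low points at the right.

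The number of fingers showed a weaker relation. The 55 members with 10 or more fingers had medians of 0.54 and 0.51, the 43 with 3 to 9 had 0.41 and 0.30, and the 14 with 1 to 2 had 0.07 and 0.15. The 3 members with 0 fingers broke this order, at 0.23 and 0.33. Across members the Spearman correlation of finger number with the ratio was 0.27 at 3 h and 0.14 at 6 h. Among the 45 KRAB members it was 0.21 and 0.17, and among the 70 others 0.20 and 0.001. Protein length had correlations of 0.02 and -0.04.

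Of 8 listed repressors of imprints and retroelements, 5 reached the floor, with medians of 0.18 and 0.08, where all genes had 0.08 and 0.12. At least 1.5-fold higher were 0 of the 5 at either time, beside 10.1% (3 h) and 17.6% (6 h) of all genes. A list of 5 is too short to be set against those shares. Zfp57, which binds methylated imprinting control regions and keeps them methylated, had 217 CPM without cycloheximide, 231 after 3 h and 140.4 after 6 h, log2 ratios of 0.09 and -0.63. It was slightly above the control at 3 h, or at -0.08 with TMM factors, and the only one of the 5 past 1.5-fold at 6 h, downward. Zfp445, which also protects imprints, had 37.5, 43.0 and 42.3 CPM. Zfp568, a repressor of a placental Igf2 transcript, had 56.8, 63.4 and 59.8 CPM. Zfp932 and Zfp961, listed as retroelement repressors, had ratios at 6 h of 0.37 and 0.00.

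Of 14 stem cell and chromatin regulators listed, 11 reached the floor, with medians of 0.50 and 0.32. At 6 h, 4 of the 11 were at least 1.5-fold higher and Zfp143 was lower, beside 17.6% and 9.43% of all genes. Zfp281 (chr1:136624901-136630053, plus strand), a transcription factor of the pluripotency network, had 50.2 CPM without cycloheximide, 90.4 after 3 h and 99.1 after 6 h, ratios of 0.85 and 0.98. Zfp410, an activator of the remodeller gene Chd4, had 11.96, 21.8 and 23.7 CPM, ratios of 0.86 and 0.98. Zfp592 and Zfp219 were the other 2, at 0.67 and 0.59. Zfp592 and Zfp532 belong to a shared chromatin complex, yet Zfp532 had 50.7, 54.6 and 37.4 CPM. Zfp644, a partner of the G9a methyltransferase, and Zfp131 had ratios at 6 h of 0.53 and 0.32. Zfp462, Zfp217 and Zfp148 had 0.10, 0.05 and -0.37.

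Of 9 RNA, ribosome and translation factors listed, 7 reached the floor, with medians of 0.07 and 0.23. Zfp326 (chr5:105876565-105915818, plus strand), a subunit of a complex that couples transcription elongation and splicing, had 43.8 CPM without cycloheximide, 67.2 after 3 h and 91.1 after 6 h, ratios of 0.62 and 1.06. Zfp106 (chr2:120506820-120563843, minus strand), an RNA-binding protein, had 173, 118 and 104 CPM, ratios of -0.55 and -0.73. These went in opposite directions. Zfp598, the ubiquitin ligase that marks collided ribosomes, had 49.4, 50.4 and 46.8 CPM, and Zfp622 and Zfp593, factors of large ribosomal subunit maturation, had ratios at 6 h of 0.23 and 0.53. Zfp830 was past 1.5-fold at 3 h (0.71) and just inside it at 6 h (0.56), while Zfp638 had 0.07 and 0.19.

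All 3 members listed as ubiquitin, SUMO and spindle factors lay above the control, except that TMM factors put Zfp207 at -0.03 at 3 h and -0.06 at 6 h. Zfp91, a ubiquitin ligase, had 50.2 CPM without cycloheximide, 85.2 after 3 h and 91.1 after 6 h, ratios of 0.76 and 0.86. The SUMO ligase Zfp451 and the spindle factor Zfp207 had ratios at 6 h of 0.33 and 0.22. Zfp706, a small protein that in embryonic stem cells is known to favour exit from self-renewal, had 259.6, 243 and 219.96 CPM, a ratio of -0.24 at 6 h.

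The 20 corepressor partners of KRAB proteins found, all at the floor, had medians near 0, of 0.05 and, at 6 h, -0.06. Trim28, the protein that binds the KRAB box, had 524 CPM without cycloheximide, 465 after 3 h and 423 after 6 h, and Setdb1 had 65.4, 64.2 and 58.6 CPM. Mphosph8 of the HUSH silencing complex (0.87 and 1.20) and Atf7ip, a Setdb1 cofactor (0.46 and 0.64), were past 1.5-fold higher at 6 h. Cbx5 (-0.78 and -0.77), Dnmt3b (-0.61 at 6 h) and Chd4 (-0.60 at 6 h) were past it downward. At 6 h these made 10% higher and 15% lower, beside 17.6% and 9.43% of all genes. The calls at 6 h depend on the scaling. With UMIs per cell Dnmt3b (-0.50) and Chd4 (-0.49) were within 1.5-fold and Pphln1 (0.64) was past it upward. With TMM factors Atf7ip (0.36) was within it, and Atrx (-0.81), Dnmt3a (-0.73), Cbx3 (-0.61) and Trim28 (-0.59) were past it downward.

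Other gene families of the same floor spanned a range on both sides of all genes. The 7 Zscan and Zkscan genes at the floor had medians of 0.48 and 0.50, and the 13 Zbtb genes 0.38 and 0.26. The 8 Klf genes, which carry 3 fingers in the median, had 0.47 and -0.19. The 10 Zc3h genes, which have fingers of another type, had 0.20 and 0.06, and the 10 Zdhhc genes, palmitoyl transferases named for another zinc motif, had 0.03 and -0.05. Pooled, the 86 other genes with at least 3 C2H2 fingers had medians of 0.38 and 0.22. Among genes with at least 20 CPM in the control, the 3 outside the group whose ratios lay closest to the members' medians, by Euclidean distance over the 2 ratios, were Prdm2, Zfp322a and Kin.

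The rule's own limits affect the account. The 4 symbols set aside were all lower than the control at 6 h. Zfp296, a stem cell factor, had 50.04, 7.98 and 5.18 CPM, log2 ratios of -2.65 and -3.27. Zfp42, also called Rex1 and a marker of the naive state, had 455, 592 and 239.6 CPM, ratios of 0.38 and -0.93. Zfp473 and Zfp36 had ratios at 6 h of -1.38 and -1.52. With the 3 of these that pass the floor included, 118 genes had medians of 0.42 and 0.32, and 14 in place of 11 were at least 1.5-fold lower at 6 h.

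The floor in the control also leaves out symbols that reached it only under cycloheximide. Of the 246 below it, 61 had at least 10 CPM at 3 h and 58 at 6 h, and 5 had 0 UMIs in all 3 libraries. The share of all genes that crossed the floor is not given here, so nothing particular to these symbols can be read from the counts. The 190 symbols with 1 to 10 CPM in the control had medians of 0.67 and 0.62, beside 0.19 and 0.34 for all 4604 genes in that range. Just inside the floor were Zfp180 (10.04 CPM in the control and 7.92 at 6 h), Zfp950 (10.1 and 18.3) and Zfp770 (10.1 and 12.03). Just outside it were Zfp825 (9.91 and 16.7), Zfp931 (9.81 and 23.7) and Zfp809 (9.57 and 11.4), the last known for silencing murine leukemia virus. In the other direction, 7 members were below 10 CPM at 6 h, again without a share of all genes to set beside them.

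Split by cell, the same UMIs gave more members per cell in both treated libraries. With each cell thinned to 15000 UMIs, a control cell had UMIs of 39 members in the median, a cell at 3 h of 47 and a cell at 6 h of 46. Genes of any kind per cell, without thinning, were also more, with medians of 6038, 6776 and 6631. A thinned count over all genes is not given here, so a rise particular to members cannot be read from these values. The median member was seen in 25.1%, 37.8% and 34.6% of cells. Zfp534 had a UMI in 34.5% of control cells (exact Clopper-Pearson 95% interval 32.5% to 36.5%), in 72.5% of those treated for 3 h (70.4% to 74.6%) and in 78.0% of those treated for 6 h (76.3% to 79.6%). Without thinning the shares were 70.5%, 95.7% and 96.0%. These cells held no other type in which the genes should be absent, so no background share could be set beside them. In barcodes with 10 to 100 UMIs, taken as free RNA, members summed to 4179, 5709 and 5127 CPM, close to the 4199, 5461 and 5411 CPM of the cells.

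Zfp105 was seen in 16.8%, 39.6% and 47.2% of thinned cells, and Zfp688 in 17.9%, 38.4% and 45.4%. Zfp57 was seen in 93.1%, 94.6% and 83.6%, and Zfp516 in 21.1%, 16.6% and 12.7%. Without thinning these were 44.4%, 81.6% and 83.2% for Zfp105 and 50.3%, 44.5% and 33.0% for Zfp516. The shares followed the CPM in direction for each of these genes.

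**Figure D5:**
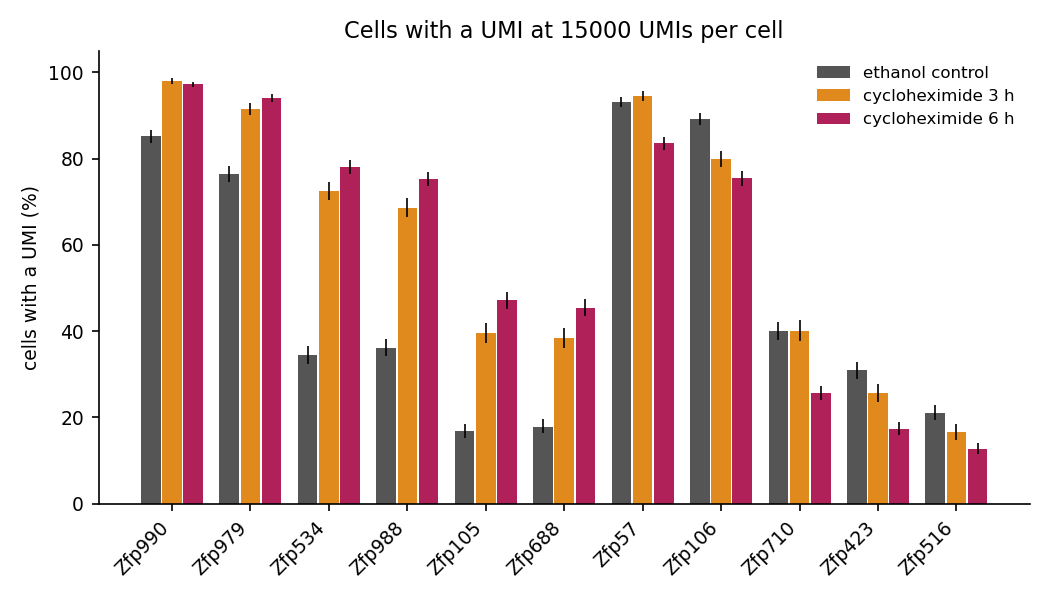
Percentage of cells with at least 1 UMI of a member after thinning every cell to 15000 UMIs, in the control (grey), at 3 h (orange) and at 6 h (crimson), with exact Clopper-Pearson 95% intervals, for 11 members chosen after their values were seen. Zfp534 goes from 34.5% to 78.0% between the control and 6 h, and Zfp57 from 93.1% to 83.6%.

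Spread between cells beyond counting noise was measured as the excess squared coefficient of variation, the variance minus the mean, divided by the squared mean. Over 76 members with at least 0.2 UMIs per thinned cell in every library the median was 0.134 (control), 0.094 (3 h) and 0.137 (6 h). Over 6047 genes past the same floor it was 0.073, 0.075 and 0.079. At 3 h 42 of the 76 members were below their control value, and 40 at 6 h. Other settings gave other medians, listed in the closing section. No tolerance was set for this measure, so no order of the 3 libraries is read from them.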

How the data were processed

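Raw UMI counts per gene and barcode were deposited by the authors, 1 matrix per library, made with Cell Ranger 4.0.0 on mm10, per the submitters' processing notes; no cells had been called in these matrices. Counts were summed over barcodes with at least 15000 UMIs and 1 to 20% mitochondrial UMIs and divided by the library total to give CPM. Log2 ratios used a prior of 0.5 counts. Doublets were not removed. With 1 library per group there was no test; ratio intervals are exact conditional binomial, levels exact Poisson, both at 95%, and cover counting error only. A count of 0 allows up to 3 counts, or 0.021 to 0.028 CPM. The ratio and interval code was tested on simulated counts.

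The members and gene lists were chosen with earlier results of these data known. Named members are the 10 highest and 10 lowest at 6 h, the 5 highest and 5 lowest at 6 h against 3 h, the role lists, the 3 symbols on each side of the floor, the 3 closest genes and the corepressors; other names were chosen after their values were seen. KRAB boxes and fingers were found by pattern in translated GENCODE M21 coding sequences in place of the RefSeq proteins first planned, and all 115 members matched. One corepressor symbol of the list, Fam208a, was not matched and has no value. The chemistry counts 3′ ends, so levels were not ranked between genes. Python 3.11.15, numpy 2.4.6, pandas 2.3.3, scipy 1.17.1 and, for TMM factors, edgeR 4.0.16 in R 4.3.3 were used.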

Additional observations from a re-analysis of the deposited data

Results flagged for a closer look

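Zfp57, Zfp1, Zfp532 and Zfp414 lay on opposite sides of the control at 3 h and 6 h, with both counting intervals leaving out 0. Their log2 ratios at 6 h against 3 h were -0.72, -0.58, -0.55 and 0.33. Zfp57, Zfp1 and Zfp532 were above the control at 3 h (0.09, 0.09 and 0.11) and below it at 6 h (-0.63, -0.49 and -0.44), and Zfp414 went the other way (-0.22 and 0.10). With 1 library per time the difference was not tested, and 318 of the 7213 genes at the floor met the same description. The sides depend on the scaling: TMM factors lower the 3 h ratios by 0.17 and the 6 h ratios by 0.28, which puts the 4 genes below the control at both times.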

How the results depend on the processing

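In order, the values are median log2 ratio at 3 h, at 6 h and at 6 h against 3 h, members 1.5-fold higher and lower at 3 h and at 6 h, KRAB minus other median at 6 h, and the log2 ratio of summed CPM at 6 h; those of the report are 0.43, 0.33, 0.002, 41, 1, 44, 11, 0.41 and 0.37. TMM factors gave medians of 0.26, 0.049 and -0.11, counts of 23, 4, 25 and 22 and a sum of 0.084. UMIs per cell gave medians of 0.70, 0.44 and -0.16, 65 higher and 0 lower at 3 h and a sum of 0.47. A floor of 20 CPM (57 members) gave medians of 0.27 and 0.22, counts of 16, 0, 18 and 6 and a sum of 0.31, and a floor of 5 CPM (192) a 6 h median of 0.53, 83 and 86 higher and a sum of 0.42. No floor beyond 1 UMI (350) gave 0.61 and 0.58, 180 higher and 5 lower at 3 h, 175 higher at 6 h, a KRAB difference of 0.23 and a sum of 0.46. A mean of 10 CPM over the libraries (159) gave 0.58, 0.59 and 0.044, 79 and 0 at 3 h, 80 higher at 6 h, a KRAB difference of 0.56 and a sum of 0.44. The floors change which genes enter, and of all genes 7.53% and 14.2% were 1.5-fold higher at 3 h and 6 h at 20 CPM, 12.6% and 20.6% at 5 CPM, 24.7% and 34.2% with no floor and 13.9% and 22.1% at the mean of 10 CPM. The sum was 0.40 with no lower mitochondrial limit, 0.36 at 30000 UMIs and 0.38 after free RNA was subtracted. Alternatives chosen after seeing the data gave 3 lower at 3 h and a sum of 0.26 with the excepted symbols, a sum of 0.33 without the 5 members of shared 3′ ends, and a KRAB difference of 0.27 and a sum of 0.21 without the chromosome 4 cluster. The excess squared coefficient of variation, 0.134, 0.094 and 0.137 for the 3 libraries in order of exposure, was 0.113, 0.111 and 0.134 at 30000 UMIs, 0.137, 0.128 and 0.153 without cells above 2 times the median UMIs and 0.112, 0.089 and 0.135 at a floor of 0.5 UMIs; the cause was not tested. The other 86 values stayed within the tolerance of their own measure. No paired analysis was possible because each group has 1 library. Depth limits the lowest levels: Zfp180, at 1119 control UMIs, had a log2 interval of -0.12 to 0.13 at 3 h.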

Other observations

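Numbered Zfp symbols below the floor reached ratios as high as those of the members, and the following are named after their values were seen. Zfp956 had 3.15 CPM in the control library, 8.97 after 3 h and 13.2 after 6 h, log2 ratios of 1.51 and 2.06 on 351 control UMIs. Zfp612, which has a KRAB box, had 3.88, 11.2 and 16.01 CPM, ratios of 1.53 and 2.04. Zfp941, also with a KRAB box, had 8.28, 24.9 and 31.7 CPM, and its ratio of 1.94 at 6 h was next to that of Zfp534. Of the 190 symbols with 1 to 10 CPM in the control, 101 were at least 1.5-fold higher at 6 h and 2 at least 1.5-fold lower, beside 36.7% and 10.6% of all 4604 genes in that range.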
